A study of Mus musculus with 12 samples.

Results

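The genes described here are Dab2ip, Lrig1 and Rhobtb1, whose products act against signalling from membrane receptors or feed proteins into degradation. They are 3 of the 37991 genes of a count table from mouse splenic resting B cells. They were chosen by measured values of that table, because their counts were strongly higher in resting Runx1 c-k/o cells than in resting controls. The resting genotype difference is therefore given as a description with no test. All 3 genes were among the 13538 with enough counts to be tested.

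The cells came from spleens of mice 8 weeks old. Controls carried the CD23-iCre transgene alone (Cre-only). Runx1 c-k/o mice carried the same transgene (CD23iCre/Runx1 ck/o) and Runx1 alleles with exon 4 between loxP sites, so all 4 groups had Cre and only the c-k/o groups could lose the exon. The CD23 promoter drives Cre in B cells from the transitional stage onwards, so deletion begins before the resting mature stage. RNA was taken from resting cells (0 h) and from cells activated for 3 h through the B cell receptor (anti-IgM) together with IL-4. Each of the 4 groups had 3 replicate libraries, 12 in all. The labels do not say which mice gave which library, so p-values measure only the spread between these samples.

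DAB2IP is a GTPase-activating protein (RasGAP) that switches RAS off, and it is also a scaffold for ASK1 in TNF receptor signalling. LRIG1 is a transmembrane protein that promotes the degradation of ErbB and other receptor tyrosine kinases. RHOBTB1 is an atypical GTPase whose BTB domains bind the ubiquitin ligase scaffold CUL3. In B cells the antigen receptor activates RAS, mainly through RASGRP exchange factors. RUNX1 is a transcription factor that can activate or repress genes and binds DNA with the core letters TGTGGT.

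In the mm9 build, Dab2ip (ENSMUSG00000026883) lies on the plus strand of chromosome 2 from 35413786 to 35586514, with 14 annotated transcripts and 8366 bases of merged exons. Lrig1 (ENSMUSG00000030029) lies on the minus strand of chromosome 6 from 94554523 to 94650152, with 6 transcripts and 5585 exon bases. Rhobtb1 (ENSMUSG00000019944) lies on the plus strand of chromosome 10 from 68614182 to 68754539, with 14 transcripts and 6078 exon bases. The counts cover whole genes, so the transcripts of a gene cannot be told apart.

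The RefSeq promoter table for GRCm38.p6 held 4 starts for Dab2ip, 1 for Lrig1 and 3 for Rhobtb1. The 250 bases before each start were searched on both strands for TGTGGT and TGCGGT, which do not overlap each other. Of 32851 such windows in the table, 18.6% held either motif. Among the 3 genes, 1 of 4 Dab2ip windows, 0 of 1 Lrig1 windows and 1 of 3 Rhobtb1 windows held a match. The sequences shown are the window with a match for Dab2ip (chr2:35691744-35691993, plus strand) and Rhobtb1 (chr10:69212944-69213193, plus strand) and the single window of Lrig1 (chr6:94700146-94700395, minus strand), each 5′ to 3′. Capitals mark the motif letters. In Dab2ip they are ACCACA, the motif on the opposite strand, with its first base at -35 from the start. In Rhobtb1 they are TGTGGT with its first base at -172.
Dab2ip: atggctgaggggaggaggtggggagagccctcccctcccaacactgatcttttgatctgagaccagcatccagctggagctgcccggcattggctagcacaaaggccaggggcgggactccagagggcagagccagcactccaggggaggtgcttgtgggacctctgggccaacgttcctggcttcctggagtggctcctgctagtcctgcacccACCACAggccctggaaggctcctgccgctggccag
Lrig1: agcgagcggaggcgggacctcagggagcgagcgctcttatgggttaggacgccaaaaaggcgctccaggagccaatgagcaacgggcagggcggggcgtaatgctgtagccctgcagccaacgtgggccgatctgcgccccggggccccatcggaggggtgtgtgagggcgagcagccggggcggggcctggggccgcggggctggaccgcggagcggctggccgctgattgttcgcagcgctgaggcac
Rhobtb1: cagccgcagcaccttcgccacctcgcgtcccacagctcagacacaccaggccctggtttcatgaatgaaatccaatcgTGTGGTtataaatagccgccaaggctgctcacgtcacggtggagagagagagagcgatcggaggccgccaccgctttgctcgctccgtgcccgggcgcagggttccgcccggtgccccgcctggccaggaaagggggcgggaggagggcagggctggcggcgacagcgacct
A match is a description of letters in the window, not a binding site. These windows were rich in G and C, at 64.8% for Dab2ip, 71.6% for Lrig1 and 66.4% for Rhobtb1, against a median of 52.4% over all windows.

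Libraries held 14442251 to 23641552 counts, so that 3 counts corresponded to 0.127 to 0.208 CPM, the unit of a count relative to its library total. In a principal component analysis, resting Runx1 c-k/o replicate 2 and 3-h Runx1 c-k/o replicate 1 stood apart from the other libraries on the second component, with scores of 37 and 46.5. The 8 B cell markers found in the table summed to between 7194 and 18354 CPM in every library. The T cell list summed to 29.3 to 42.0 CPM in the libraries at rest and 63.6 to 83.0 CPM at 3 h. Most of this was Lck, with means of 34.9 and 31.2 CPM at rest and 65.2 and 71.0 CPM at 3 h in Cre-only and c-k/o cells, while the T cell receptor genes Cd3d, Cd3e and Cd3g had 70, 43 and 88 counts over all 12 libraries. Globin and platelet genes summed to 59.6 to 341 CPM in resting Cre-only cells and 322 to 532 CPM in resting c-k/o cells, and to 20.8 to 177 and 151 to 266 CPM at 3 h. Of 52 marker genes tested in 10 lists, edgeR called 1 at rest, the plasma cell gene Sdc1 (log2 fold change -1.35, adjusted p = 0.00157), and 0 at 3 h, with 7 and 8 under an unadjusted p of 0.05 and 2 (Sdc1 and Cr2) and 0 called by the DESeq2 Wald test. Over all tested genes edgeR called 1.49% at rest and 2.77% at 3 h. Shares over all genes are not given for the unadjusted p or for sums of lists. The 7 marginal zone markers summed to 1278 to 1590 CPM in Cre-only and 1715 to 1863 CPM in c-k/o cells at rest and to 2453 to 2730 and 2736 to 3455 CPM at 3 h, without overlap at either time, and Cr2, which is also in the B cell list, gave most of this sum. edgeR called 0 of the 7 at either time, with 4 at rest and 2 at 3 h under an unadjusted p of 0.05. The 4 at rest, named after their values were seen, were Cr2, Cd9, S1pr3 and Cd36, with log2 differences of 0.48, 0.55, 0.60 and -0.44 (edgeR adjusted p = 0.147, 0.273, 0.207 and 0.332), and the median of the 7 was 0.09. The myeloid sum spanned 247 to 300.4 CPM in Cre-only and 213 to 417 CPM in c-k/o cells at rest, and 17.6 to 25.4 and 19.2 to 46.5 CPM at 3 h. No marker was at 0 in all libraries of a group. The part of these markers in the results was not tested.

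Counts on Runx1 itself were not lower in the c-k/o libraries. Normalized levels of Runx1 at rest were 83.6, 81.8 and 86.7 CPM in Cre-only cells and 101, 95.7 and 103 CPM in c-k/o cells. At 3 h they were 38.5, 37.0 and 34.9 CPM against 47.3, 70.6 and 74.5 CPM, a log2 difference of 0.80 ± 0.14 (SE, adjusted p = 0.00769). Whole-gene counts do not separate exon 4 from the other exons, so they do not check the deletion. From Western blots, the paper reports that RUNX1 protein was absent in mature resting B cells of c-k/o mice.

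All 3 genes were higher in resting c-k/o cells, by 3.96-fold for Dab2ip, 7.59-fold for Lrig1 and 4.96-fold for Rhobtb1. After 3 h of activation all 3 were still higher, and the differences in these samples passed the test. The stated reason for choosing the genes was their resting values. Earlier results of these data were known by then, so the 3-h test is not fully independent of the choice. Dab2ip had the smallest difference of the 3 at rest and the largest at 3 h, 5.72-fold. Lrig1 showed the opposite order, with the largest difference at rest and the smallest, 2.17-fold, at 3 h. Rhobtb1 differed to a similar degree at both times.

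**Figure D1:**
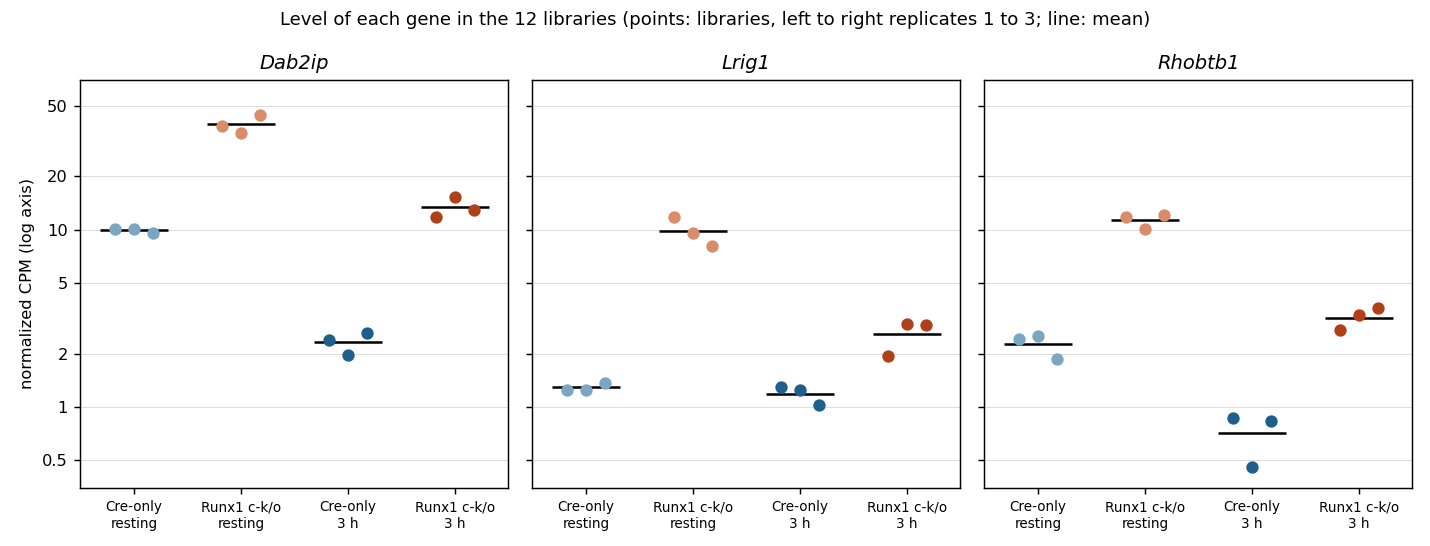
Normalized CPM on a log axis for Dab2ip, Lrig1 and Rhobtb1 in the 12 libraries, with points for libraries and a line for the mean of 3. In each panel the c-k/o points lie above the Cre-only points of the same time, and the Cre-only points of Lrig1 stay near 1 CPM at both times (means 1.29 and 1.19 CPM).

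Dab2ip, the RasGAP and ASK1 scaffold, had normalized levels of 10.02, 10.1 and 9.61 CPM in resting Cre-only cells and 38.5, 35.1 and 44.3 CPM in resting c-k/o cells. At 3 h it was at 2.37, 1.96 and 2.61 CPM in Cre-only cells and 11.8, 15.3 and 12.8 CPM in c-k/o cells. The genotypes did not overlap at either time. Each 3-h c-k/o library was also above each resting Cre-only library. That comparison includes resting libraries that chose the genes, and its share over all tested genes was not counted. These levels rested on 155 to 208 counts in resting Cre-only libraries, 543 to 667 in resting c-k/o libraries, 30 to 55 in 3-h Cre-only libraries and 184 to 233 in 3-h c-k/o libraries.

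The log2 difference of Dab2ip between genotypes was 1.99 ± 0.13 (SE) at rest. At 3 h it was 2.52 ± 0.15 (edgeR adjusted p = 6.85e-06), rank 43 from the highest of 13538 genes. Of all tested genes, 1.47% were called higher in c-k/o cells at 3 h, and 2.77% were called in either direction. In 9.5% of tested genes the 3 c-k/o samples at 3 h all lay above the 3 Cre-only samples, as they did for all 3 genes here. At rest, the contrast that chose the genes, these shares were 0.731% called higher and 12% without overlap.

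Lrig1, the brake on receptor tyrosine kinases, was at 1.25, 1.25 and 1.36 CPM in resting Cre-only cells and at 11.8, 9.57 and 8.10 CPM in resting c-k/o cells. At 3 h it was at 1.29, 1.24 and 1.02 CPM in Cre-only cells and 1.93, 2.95 and 2.89 CPM in c-k/o cells. The resting c-k/o libraries stood far above the 9 others, which all lay under 3 CPM. Counts were low, at 22 to 26 in resting Cre-only libraries, 122 to 201 in resting c-k/o libraries, 16 to 30 in 3-h Cre-only libraries and 30 to 49 in 3-h c-k/o libraries.

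The log2 difference of Lrig1 was 2.92 ± 0.21 (SE) at rest and 1.11 ± 0.23 at 3 h (edgeR adjusted p = 0.0221, rank 340 of 13538). The 3-h call was the least firm of the 3. It was lost without any 1 of the 3-h libraries except c-k/o replicate 1 (edgeR adjusted p = 0.0764, 0.0760 and 0.0904 without Cre-only replicates 1, 2 and 3, and 0.0730 and 0.0501 without c-k/o replicates 2 and 3), while the log2 difference stayed between 1.01 and 1.30. Without c-k/o replicate 1, which stood apart, it was 1.30 (adjusted p = 0.00706). It also missed the threshold with the replicate number as a block (adjusted p = 0.0517) and with only the 3-h libraries in the fit (adjusted p = 0.120), and the DESeq2 Wald test called it (adjusted p = 0.00307).

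Rhobtb1, the CUL3-binding GTPase, was at 2.41, 2.51 and 1.86 CPM in resting Cre-only cells and at 11.7, 10.02 and 12.1 CPM in resting c-k/o cells. At 3 h it was at 0.863, 0.457 and 0.828 CPM in Cre-only cells and 2.70, 3.28 and 3.59 CPM in c-k/o cells. The 3-h c-k/o libraries lay above the resting Cre-only libraries, as for Dab2ip and with the same limits. The 3-h Cre-only values rested on 20, 7 and 13 counts, and the resting c-k/o values on 155 to 200.

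The log2 difference of Rhobtb1 was 2.31 ± 0.19 (SE) at rest and 2.12 ± 0.24 at 3 h (edgeR adjusted p = 0.000431, rank 66 of 13538). Without the c-k/o library that stood apart at 3 h, the difference was 2.24 for Rhobtb1 and 2.61 for Dab2ip. Without the one that stood apart at rest, the resting differences were 2.06 for Dab2ip, 2.94 for Lrig1 and 2.39 for Rhobtb1. None of these values moved by as much as its standard error.

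**Figure D2:**
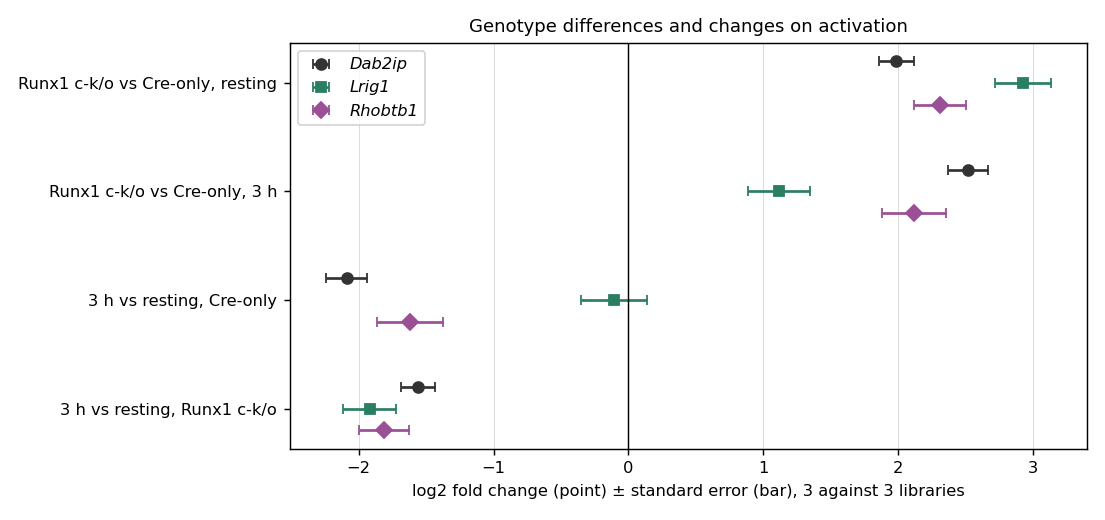
Log2 fold changes with standard errors for the genotype difference at rest and at 3 h and for the change between rest and 3 h in each genotype. The genotype differences all lie to the right of 0, and the activation changes lie to the left of 0, with only the error bar of Lrig1 in Cre-only cells (-0.11 ± 0.25) crossing it.

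Each difference arose from a small number of transcripts. Per kilobase of merged exon, Dab2ip stood at 1.18 ± 0.03 CPM (SD, n = 3) in resting Cre-only cells, above 21.8% of 13514 genes with a known length, and at 4.70 ± 0.55 in resting c-k/o cells, above 43.2%. Lrig1 was at 0.231 ± 0.011 and 1.76 ± 0.33 CPM per kilobase, above 5.85% and 26.8% of genes. Rhobtb1 was at 0.372 ± 0.057 and 1.85 ± 0.18, above 9.38% and 27.6%. All 3 lay in the lower part of the range of tested genes even where they were highest. In bulk RNA, more expressing cells and more RNA per cell cannot be told apart.

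Activation was accompanied by lower levels of Dab2ip and Rhobtb1 in both genotypes. These changes share the resting samples that chose the genes and are given without a test. Dab2ip was 4.26-fold lower at 3 h in Cre-only cells (log2 -2.09 ± 0.15) and 2.95-fold lower in c-k/o cells (-1.56 ± 0.13). Rhobtb1 was 3.08-fold lower in Cre-only cells (-1.62 ± 0.24) and 3.52-fold lower in c-k/o cells (-1.82 ± 0.19). In each case the 3 libraries at 3 h lay below the 3 at rest, which was also so for 40.6% of tested genes in Cre-only cells and 36.3% in c-k/o cells.

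Lrig1 behaved differently. In Cre-only cells its libraries at rest and 3 h overlapped, with a log2 change of -0.11 ± 0.25. In c-k/o cells it was 3.78-fold lower at 3 h (-1.92 ± 0.19), and all 3 libraries lay below those at rest. With 1 factor of unwanted variation the Cre-only change of Lrig1 took the opposite sign (0.32 in edgeR, 0.23 in DESeq2).

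The genotype difference changed between rest and 3 h by 0.53 ± 0.20 log2 units for Dab2ip, -1.81 ± 0.32 for Lrig1 and -0.19 ± 0.33 for Rhobtb1. These values contain the contrast that chose the genes and carry no test. For Lrig1 the change was the 50th lowest of 13538 genes.

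Dab2ip was set beside the other 9 RasGAP genes of a family list, all of which were tested. In resting Cre-only cells it was the 8th of the 10 per kilobase and made up 0.713% of their summed level. In resting c-k/o cells it was the 7th and made up 2.91%. The family was led at rest by Rasa3, an inositol phosphate-binding RasGAP, at 83.3 ± 2.4 CPM per kilobase in Cre-only and 77.3 ± 10.5 in c-k/o cells. Rasal3, a RasGAP of blood cells, followed at 43.0 ± 1.8 and 41.0 ± 2.5. Neither passed the test at rest (edgeR adjusted p = 0.805 and 0.743).

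Of the 9 other RasGAPs, 1 passed the test at each time, Rasa4, a calcium-responsive RasGAP. Over all tested genes 1.49% passed at rest and 2.77% at 3 h. Rasa4 was at 17.6, 17.3 and 19.2 CPM in resting Cre-only cells and 30.8, 30.2 and 29.3 CPM in resting c-k/o cells (log2 difference 0.74 ± 0.13, edgeR adjusted p = 0.0158). At 3 h it was at 12.4, 8.82 and 8.22 CPM against 16.8, 15.2 and 14.9 CPM (0.66 ± 0.14, adjusted p = 0.0257). It was higher in all 3 c-k/o libraries at both times, by much less than Dab2ip. Such a separation was seen in 12% of tested genes at rest and in 9.5% at 3 h. The resting call held without c-k/o replicate 2 and was lost without any other resting library, with adjusted p-values up to 0.0954. The 3-h call was lost without Cre-only replicate 2 or 3 or c-k/o replicate 1 or 2, with adjusted p-values up to 0.126, and in the fit of the 3-h libraries alone at 0.173.

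**Figure D3:**
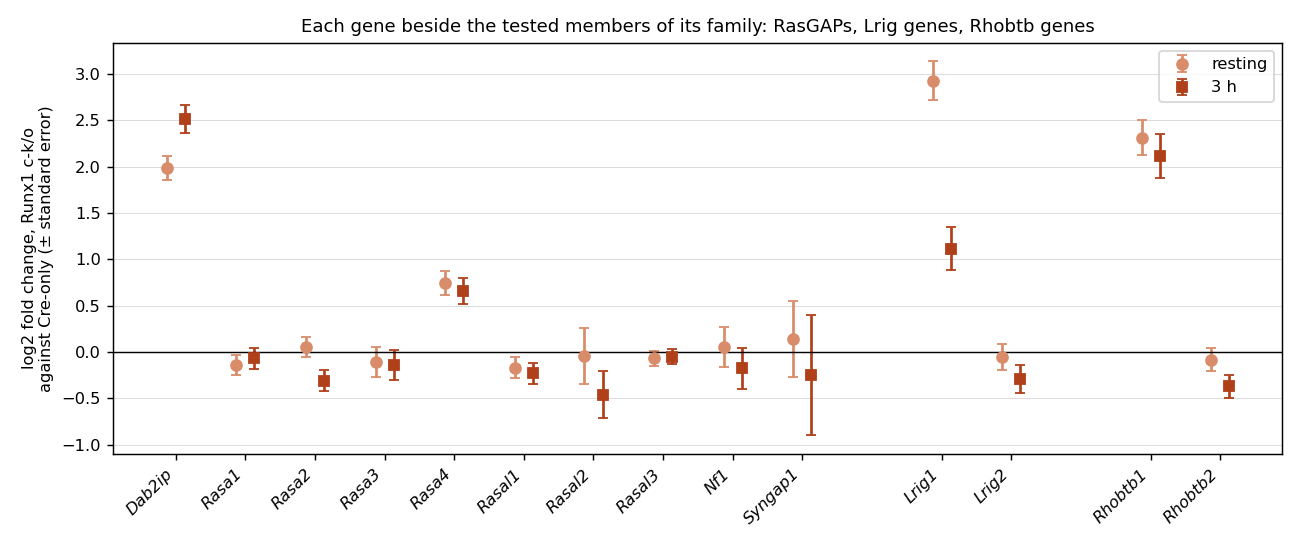
Log2 fold change between genotypes (c-k/o over Cre-only) with standard errors, at rest (circles) and 3 h (squares), for Dab2ip and the other RasGAPs, Lrig1 with Lrig2, and Rhobtb1 with Rhobtb2. Dab2ip, Lrig1 and Rhobtb1 lie at 1.11 or above at both times, Rasa4 lies at 0.74 and 0.66, and the other relatives lie near or below 0.

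Lrig2, the paralog of Lrig1, was the more abundant gene in every group. Per kilobase it was at 41.7 times the level of Lrig1 in resting Cre-only cells and 5.28 times in resting c-k/o cells. Lrig2 itself had log2 differences of -0.06 at rest and -0.29 at 3 h (edgeR adjusted p = 0.893 and 0.346). Lrig3 had too few counts to be tested, with 68 in all.

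Rhobtb2, the paralog of Rhobtb1, was likewise the main member of its family. Its level per kilobase was 56.7 times that of Rhobtb1 in resting Cre-only cells and 10.7 times in resting c-k/o cells. At 3 h these ratios were 97.4 and 16.9. Rhobtb2 had log2 differences of -0.08 at rest and -0.37 at 3 h (edgeR adjusted p = 0.808 and 0.164), and Rhobtb3 had only 28 counts in all. With 1 factor of unwanted variation the 3-h difference of Rhobtb2 was called in edgeR (-0.30, adjusted p = 0.0278) and not in DESeq2 (-0.26, adjusted p = 0.0511). In both pairs the gene described here was the minor paralog in these cells.

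Other genes of the pathways around the 3 genes were examined, with their calls set beside the share over all tested genes. Among 92 other genes in 7 lists, 76 were tested, and 2 of these (2.63%) were called at rest against 1.49% of all tested genes. These 2 were Rasa4 and Tgfa, and Tgfa passed the count filter only through resting c-k/o libraries, where it was high. At 3 h 1 of 76 (1.32%) was called against 2.77% of all. Counts of 2 and 1 are too small to set these shares apart from those of all genes. The median log2 differences of the list genes were -0.01 at rest and -0.05 at 3 h, against 0.03 and 0.01 over all tested genes.

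None of the 20 tested genes of a list of RAS proteins, their exchange factors and downstream kinases was called in the edgeR test at either time, and the DESeq2 Wald test called 0 as well. At an unadjusted p of 0.05 there were 1 at rest and 3 at 3 h. The share over all tested genes at that unadjusted p is not given, here or for the lists below. Such counts are therefore not read as a result. With 1 factor of unwanted variation, which gave more calls over the whole table, Ksr1 was called at both times in edgeR and DESeq2. Rasgrp1 was called so at 3 h in DESeq2 only. Ksr1, named after its values were seen, had log2 differences of 0.41 and 0.38 in the main edgeR test (adjusted p = 0.217 and 0.178). The exchange factors Rasgrp1 and Rasgrp3, which link the antigen receptor to RAS, had log2 differences of 0.05 and 0.15 at rest and 0.27 and -0.15 at 3 h. Their levels were lower at 3 h in both genotypes, from 282 to 23.2 CPM for Rasgrp1 in Cre-only and from 292 to 28.0 CPM in c-k/o cells.

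None of the 12 genes of the TNF receptor and ASK1-JNK list was called by edgeR or by the DESeq2 Wald test, with 0 at rest and 1 at 3 h under an unadjusted p of 0.05. Birc3, its member with the most counts, and Birc2, both ubiquitin ligases of the TNF receptor complex, had log2 differences of 0.10 and -0.16 at rest and 0.02 and -0.09 at 3 h. Map2k7, whose product phosphorylates JNK, had 0.01 and -0.06, and the p38 gene Mapk14 had -0.07 and 0.02. With 1 factor of unwanted variation, which gave more calls over the whole table, Ripk1 was called at 3 h in edgeR only. Ripk1, named after its values were seen, had log2 differences of -0.17 and -0.30 in the main edgeR test (adjusted p = 0.555 and 0.131).

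A list of LRIG paralogs, receptor tyrosine kinases that LRIG1 restrains and other brakes on them had 8 tested genes. Of these 8, 0 were called by edgeR or by the DESeq2 Wald test, with 2 at rest and 1 at 3 h under an unadjusted p of 0.05. The receptors tested were Erbb2, Erbb3, Met and Ret, and Erbb2, Met and Ret had only 123, 157 and 126 counts over all libraries. Egfr and Pdgfra had 13 and 2 counts over all libraries and Erbb4 had 0, so their levels were not detectable at this depth. Erbb3 was at 5.96 CPM in resting Cre-only and 6.63 CPM in resting c-k/o cells. The ubiquitin ligases Cbl and Cblb were at 188 and 150 CPM in resting Cre-only and 136 and 104 CPM in resting c-k/o cells (adjusted p = 0.741 and 0.305). Cbl spanned 184 to 192 CPM in resting Cre-only and 68.0 to 179 CPM in resting c-k/o libraries, and Cblb 141 to 156 and 87.5 to 113 CPM. With 1 factor of unwanted variation, Cblb was called at rest in edgeR and DESeq2, and Cbl at 3 h in DESeq2. Those fits also called more genes over the whole table. Errfi1, a feedback inhibitor of ErbB receptors, had log2 differences of -0.26 and -0.11.

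The other call among the lists was Tgfa, which encodes a ligand of the EGF receptor. It had 2, 2 and 2 counts in resting Cre-only libraries and 26, 16 and 24 in resting c-k/o libraries. From these sums the ratio was 12.6 (exact 95% interval for counting error 5.48 to 35.5), and the fitted log2 difference was 3.56 ± 0.43 (edgeR adjusted p = 0.00144, at most 0.0172 in all 13 alternatives that tested it). Tgfa reached the filter's minimum of 10 counts only in resting c-k/o libraries, so it entered the test through the group where it was high. At 3 h Tgfa had 0, 1 and 1 counts against 1, 2 and 3 (adjusted p = 0.394). Its 3-h counts lay at or under the floor of 3 in every library, so no difference was detectable there. The other tested ligands, Egf and Hbegf, had log2 differences of -0.12 and 0.33 at rest and -0.37 and 0.86 at 3 h, and neither was called.

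In the CUL3 list 0 of 11 tested genes were called by edgeR, with 0 and 2 under an unadjusted p of 0.05. The DESeq2 Wald test called 0 at rest and 1 at 3 h, the adaptor gene Klhl9, named here after its values were seen (log2 difference -0.41, edgeR adjusted p = 0.0506). With 1 factor of unwanted variation, Klhl9 was called at 3 h in edgeR and DESeq2, and Rhobtb2 in edgeR only. Those fits also called more genes over the whole table. The scaffold gene Cul3 had log2 differences of -0.02 and -0.05, Cand1, which exchanges its adaptors, 0.00 and -0.10, and the adaptor gene Spop -0.10 and -0.06.

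Across the 12 libraries the profiles of the 3 genes were similar but not the same. Pearson's r of log2 CPM was 0.985 between Dab2ip and Rhobtb1, 0.906 between Lrig1 and Rhobtb1 and 0.856 between Dab2ip and Lrig1 (n = 12). Dab2ip and Rhobtb1 were each the gene most like the other among all 13538. Lrig1 was only the 139th most like Dab2ip. These correlations run over 4 groups of 3 libraries, include the resting samples that chose the genes, and are a description.

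Beside Rhobtb1, the genes most like Dab2ip were Serpine2, a protease inhibitor (r = 0.975), Irf7, an interferon regulatory factor (0.974), Map4k3, a kinase upstream of JNK (0.974), and Dmwd (0.973). For Rhobtb1 they were Dab2ip, then Zfp365 (0.971), Map4k3 (0.967), Dmwd (0.961) and Ski, a repressor in TGF-beta signalling (0.957). These genes were chosen by correlation over the same libraries, so a shared pattern follows from the choice. The c-k/o mean of each exceeded the Cre-only mean at rest and after activation, and in both genotypes the mean was lower at 3 h. Serpine2, for example, averaged 1.97 CPM in resting Cre-only and 6.80 CPM in resting c-k/o cells, and 0.651 and 3.09 CPM at 3 h. Irf7 averaged 59.7 and 121 CPM at rest and 15.1 and 51.9 CPM at 3 h.

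The genes most like Lrig1 were Ski (r = 0.977), Tgfa (0.942), Gm8093 (0.929), Ifnar1, a chain of the type I interferon receptor (0.929), and Gm16857 (0.918). Tgfa and Gm8093 rested on very few counts, with at least 1 library at 0 each. Ski was at 63.2 CPM in resting Cre-only and 100.1 CPM in resting c-k/o cells, and at 56.5 and 72.6 CPM at 3 h. Ifnar1 was at 158 and 403 CPM at rest and 165 and 305 CPM at 3 h. Between rest and 3 h Ski had fitted log2 changes of -0.16 (Cre-only) and -0.46 (c-k/o), and Ifnar1 of 0.06 and -0.40.

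**Figure D4:**
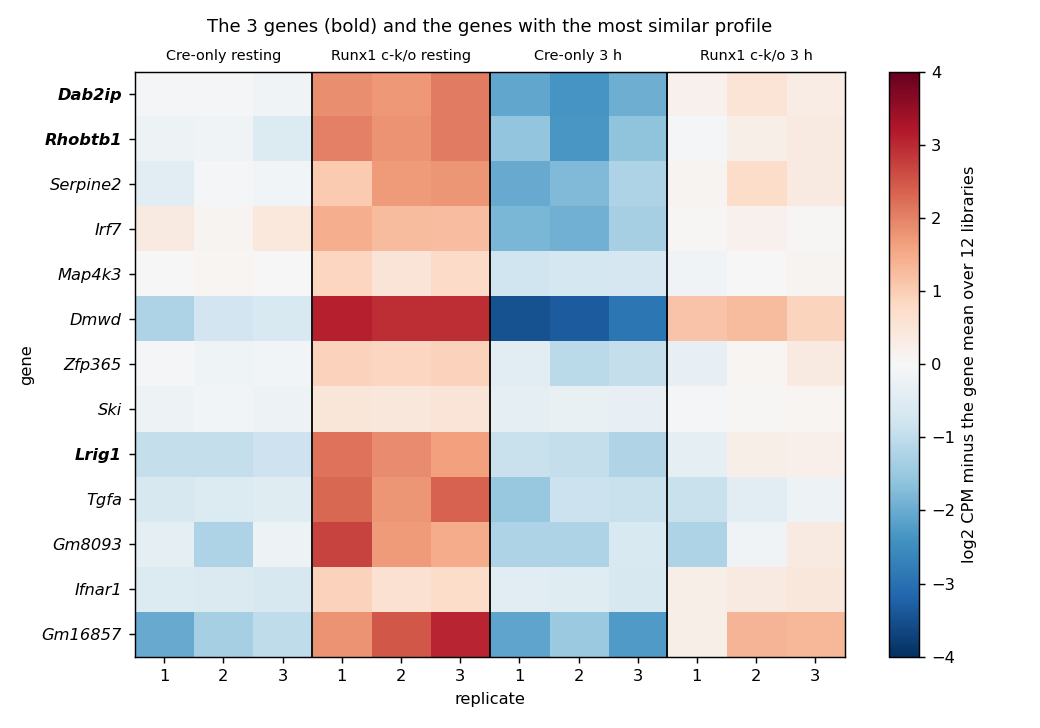
Log2 CPM minus the mean of each gene over the 12 libraries (colour) for Dab2ip, Rhobtb1 and Lrig1 (bold) and the genes with the highest Pearson correlation to each, with libraries grouped by genotype and time. The 3 resting c-k/o libraries are the highest for each gene, and 3-h Cre-only libraries are low for Dab2ip and Rhobtb1 but level with resting Cre-only libraries for Lrig1.

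Genes close to each of the 3 were examined for the same change. Of all 13538 tested genes, 1.49% were called at rest and 2.77% at 3 h. Of 8 tested genes starting within 500 kb of Dab2ip, 1 was called, in the opposite direction. This was Gsn, the actin-severing protein gelsolin, at 89.6, 102 and 90.7 CPM in resting Cre-only and 44.4, 46.1 and 47.2 CPM in resting c-k/o cells (log2 difference -1.04, edgeR adjusted p = 0.00141). At 3 h Gsn was at 17.4, 15.6 and 13.1 CPM against 7.60, 8.66 and 6.12 CPM (-1.05, adjusted p = 0.00133), and both calls held in all 14 alternatives. The nearest tested gene, Ggta1, upstream, had log2 differences of -0.08 and 0.05.

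Of the 2 tested genes within 500 kb of Lrig1, Slc25a26 and Kbtbd8, 0 were called by edgeR or by the DESeq2 Wald test at either time and 0 had an unadjusted p under 0.05, with adjusted p-values of 0.719 and 0.857 at rest and 0.442 and 0.745 at 3 h. Slc25a26, a mitochondrial carrier, overlaps Lrig1 on the other strand by 120 exon bases and had 82 to 253 counts a library. Whether counting used the strand is not given in the sources used here, so reads from this overlap cannot be assigned with certainty.

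Of the 3 tested genes within 500 kb of Rhobtb1, 2 were called at rest, both higher, against 0.731% of all tested genes called higher. With only 3 genes tested, this count is not a precise share. Tmem26, a membrane protein gene that starts at -428 kb (upstream), was at 23.4, 19.4 and 21.7 CPM in resting Cre-only and 33.3, 32.8 and 33.8 CPM in resting c-k/o cells (log2 difference 0.63, edgeR adjusted p = 0.0111, and 0.0782, 0.0574 and 0.0555 without Cre-only replicate 2 or 3 or c-k/o replicate 3). At 3 h it was at 6.04, 5.16 and 4.97 CPM against 11.6, 13.1 and 14.02 CPM (1.25, adjusted p = 0.000157), a call that held in all 14 alternatives. The other was A930033H14Rik, which lies on the opposite strand within the span of Rhobtb1 and shares 15 exon bases with it. It had 4, 2 and 3 counts in resting Cre-only and 13, 14 and 17 in resting c-k/o libraries, a ratio of 5.59 (exact 95% interval 2.69 to 13.03), with a log2 difference of 2.44 (edgeR adjusted p = 0.0162, and 0.0756, 0.1003, 0.0659 and 0.0829 without Cre-only replicate 1, 2 or 3 or c-k/o replicate 3). At 3 h its log2 difference was 1.53 (adjusted p = 0.111). None of its Cre-only libraries reached the filter's minimum of 10 counts, so it entered the test through c-k/o libraries, where it was high. Without knowledge of the strand setting, its reads and those of unspliced Rhobtb1 RNA cannot be told apart. Cdk1, 202 kb downstream, had log2 differences of -0.56 and -0.26 and was not called.

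**Figure D5:**
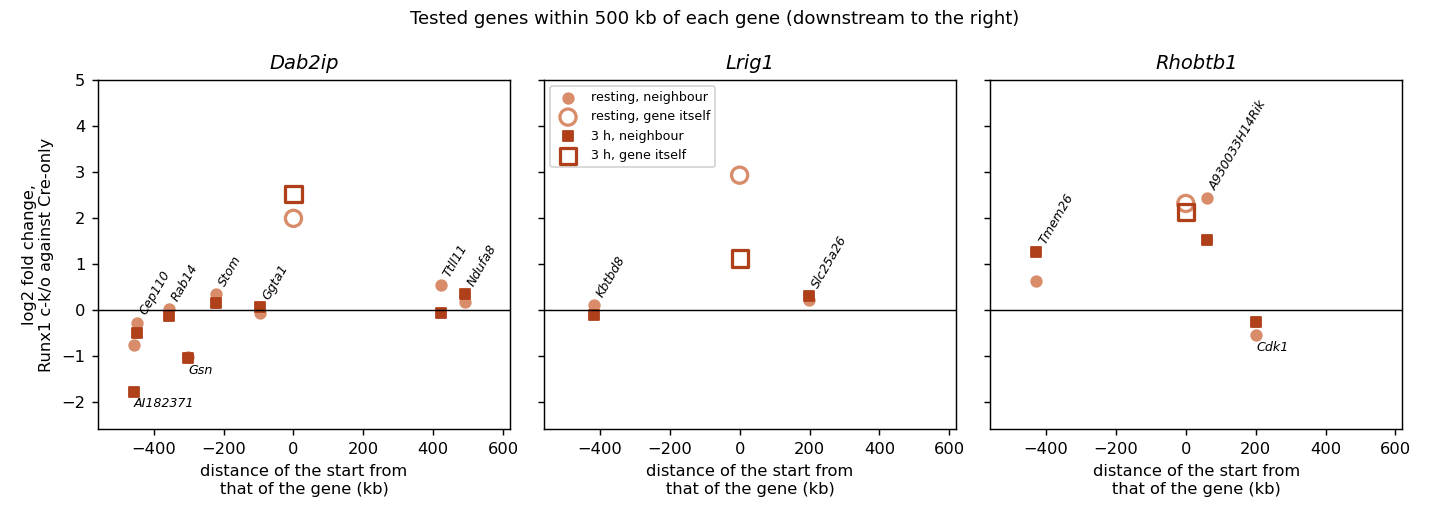
Log2 fold change between genotypes (c-k/o over Cre-only) at rest (circles) and 3 h (squares) against the distance in kb of each tested gene's start from that of Dab2ip, Lrig1 or Rhobtb1, which are drawn as open symbols at 0. Gsn lies at -1.04 and -1.05 beside Dab2ip, the neighbours of Lrig1 lie near 0, and Tmem26 and A930033H14Rik lie above 0 beside Rhobtb1.

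In the order of the resting difference, with genes called higher in c-k/o cells ranked by their p-value, the 3 genes were the 2nd (Dab2ip), the 3rd (Lrig1) and the 5th (Rhobtb1). Dmwd was the first, at 8.85 CPM in Cre-only and 130 CPM in c-k/o cells, and Ifnar1 the fourth. The next after Rhobtb1 were Ass1, at 11.7 and 26.4 CPM, and Cd200, at 34.99 and 79.1 CPM. The choice of these 3 genes had no numeric threshold, and these values are given as a description.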

How the data were processed

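RNA was poly(A)-selected and sequenced as stranded paired-end libraries from 12 samples in 4 groups. The authors mapped reads to mm9 (Tophat2) and used featureCounts with Ensembl annotation for counting. The deposited table holds raw counts for each gene, not normalized, and 0 spike-in rows. The strand setting is not given in the sources used here, and the authors tested with DESeq2 and RUV-seq.

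Counts were read with Python 3.11.15 and tested in R 4.3.3 with edgeR 4.0.16 (filterByExpr with a minimum of 10 counts, TMM, robust quasi-likelihood F test of 4 groups). Benjamini-Hochberg adjustment ran over 13538 genes with a threshold of 0.05. All adjusted p-values are from this test unless another is named. CPM values are normalized. An exact permutation test of 3 against 3 cannot give a p under 0.1. The members and lists were chosen with earlier results of these data known. Named genes were the 3 members, Runx1, called genes and otherwise the most abundant genes (up to 4) of each list, 5 genes most correlated with each member, and tested genes within 500 kb. Some genes and 1 list that this rule names are not reported here. Exon length is the union over transcripts of the GENCODE annotation of mm9. Same-numbered resting and 3-h Cre-only libraries deviated together (r 0.144 to 0.275 over genes). In c-k/o libraries r was -0.254, -0.264 and 0.254 for replicates 1, 2 and 3. The tests take all 12 libraries as independent. Floors and intervals cover counting error only. Alternatives included DESeq2 1.42.0, RUVs (computed from its published definition), other filters, a replicate block and leaving out each library, and the models were tested on simulated data.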

Additional observations from a re-analysis of the deposited data

How the results depend on the processing

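The 3-h differences of Dab2ip and Rhobtb1 kept their direction and their call under every alternative that could be fitted (log2 2.41 to 2.62 and 1.91 to 2.30), but Rhobtb1 had under 10 counts in 1 library and was not tested with at least 10 counts in every sample. The 3-h difference of Lrig1 kept its direction and lost its call with only the 3-h libraries in the fit (1.13, adjusted p = 0.120) and in 5 of the 6 fits without 1 library (1.01 to 1.30 over these 6). With the replicate number as a block (replicate block), Lrig1 was at 1.12 (adjusted p = 0.0517), the table gave 140 calls in place of 202 at rest and 275 in place of 375 at 3 h, and no call of Dab2ip or Rhobtb1 or count of list genes changed. Between genotypes, deviations of same-numbered libraries correlated at 0.0111 to 0.068 at rest and -0.0665 to 0.00989 at 3 h. Of the c-k/o libraries 2 of 3 at rest and 1 of 3 at 3 h correlated best with their own number (Cre-only, 3 of 3 and 0 of 3). These small values do not settle whether the numbers pair the libraries, and the labels do not say. The resting differences and the changes of the genotype difference moved by less than the spread between replicates under all alternatives.

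Changes on activation moved by more than the replicate spread with a factor of unwanted variation and with a stricter filter. With 1 RUVs factor in edgeR and in DESeq2 they were -1.76 and -1.87 (Cre-only) and -1.22 and -1.28 (c-k/o) for Dab2ip, 0.32 and 0.23 and then -1.50 and -1.54 for Lrig1, and -1.24 (Cre-only, edgeR) and -1.42 and -1.48 (c-k/o) for Rhobtb1. With at least 10 counts in every sample the Cre-only changes were -2.25 for Dab2ip and -0.26 for Lrig1. The cause was not tested.

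Calls among list genes numbered 2 at rest and 1 at 3 h. At rest they were 4 with RUVs in edgeR and in DESeq2, 1 with at least 10 counts in every sample and 1 to 2 without 1 library (2 only without c-k/o replicate 2). At 3 h they were 6 and 8 with RUVs in edgeR and DESeq2, 3 with the DESeq2 Wald test, 2 with at least 10 counts in every sample, 0 with only the 3-h libraries and 0 to 4 without 1 library (0 without Cre-only replicate 2 or 3 or c-k/o replicate 1, 4 without c-k/o replicate 3). Over the whole table, the counts with RUVs in edgeR, RUVs in DESeq2 and the DESeq2 Wald test were 524, 611 and 378 at rest and 1036, 1235 and 707 at 3 h. They were 158 at 3 h with only the 3-h libraries, 81 to 140 at rest without 1 library (86, 81 and 93 without Cre-only replicates 1, 2 and 3, 129 and 88 without c-k/o replicates 1 and 3), and 180 to 617 at 3 h (180, 194 and 229 without Cre-only replicates 1, 2 and 3, 617 without c-k/o replicate 3). Low counts limit Lrig1 and Rhobtb1 in Cre-only cells at 3 h, and Tgfa throughout.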
